A study of Mus musculus with 6 samples.

Results

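The mitochondrial ribosomal protein genes are the nuclear genes whose proteins, together with RNA made inside the organelle, form the mitochondrial ribosome. They were taken as every gene in the deposited table whose symbol starts with Mrpl or Mrps followed by a digit, pseudogenes left out, which gave 78 of the 16095 genes. Their RNA was compared between epithelial cells sorted from kidneys of tamoxifen-treated mice of 2 genotypes, with 3 libraries of each. The Terf1FLOX libraries came from mice whose gene for TRF1 (Trf1 in the labels, Terf1 as a gene symbol) is flanked by loxP sites on both copies (Trf1lox/lox). The control libraries came from Trf1+/+ mice. Both genotypes carried a KFP reporter allele (KFP+/t) and a Cre allele (Cre+/t), so the controls also had an active recombinase. The Cre is a tamoxifen-inducible CreERT2 under the Ksp-cadherin promoter, which is active in kidney tubule epithelium. Males and females aged 6 to 8 weeks at the start were injected 3 times a week for 8 weeks, and cells were sorted on EpCAM and on the reporter. The labels do not say whether a library held cells of 1 mouse or of several, so n counts libraries and the p-values measure the spread between them.

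The mitochondrial ribosome translates the few messenger RNAs encoded by mitochondrial DNA, all of which specify subunits of the respiratory chain and of ATP synthase. It has a large subunit, which joins amino acids and holds the exit tunnel, and a small subunit, which reads the messenger RNA. Some of its proteins have a counterpart in bacterial ribosomes and others do not. All of the proteins are imported from the cytosol. Kidney tubule cells, above all those of the thick ascending limb and the distal convoluted tubule, are rich in mitochondria that power sodium transport. Gene names do not always follow the subunit: the products of Mrps18a and Mrps30 sit in the mammalian large subunit, and Mrps36 encodes a component of the oxoglutarate dehydrogenase complex. The 78 genes were therefore read as 51 of the large subunit, 26 of the small subunit and Mrps36.

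The promoters of 5 of the 6 genes with the smallest p, 3 in each direction, are shown so that their start regions can be compared. Mrpl4 is the other gene and is named only. They are RefSeq windows on build GRCm38.p6, which is not the build named for the deposited table (GRCm39), and they were matched by gene symbol. Each line runs 5′ to 3′ from 90 bases before the annotated start to 10 bases after it, and capitals mark the Sp1 box (GGGCGG) or the ETS core (CCGGAAG) on either strand. The first 3 are from genes with higher values in Terf1FLOX libraries. They lie at chr6:39810927-39811026 on the minus strand (Mrps33), chr5:31613861-31613960 on the plus strand (Mrpl33) and chr10:95501940-95502039 on the minus strand (Mrpl42). The last 2 are from genes with lower values in Terf1FLOX libraries. They lie at chr4:107066857-107066956 on the minus strand (Mrpl37) and chr11:97315626-97315725 on the plus strand (Mrpl45).
Mrps33: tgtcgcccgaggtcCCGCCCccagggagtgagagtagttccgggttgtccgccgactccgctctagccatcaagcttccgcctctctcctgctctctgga
Mrpl33: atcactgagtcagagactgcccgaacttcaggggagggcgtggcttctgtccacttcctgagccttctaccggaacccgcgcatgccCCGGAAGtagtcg
Mrpl42: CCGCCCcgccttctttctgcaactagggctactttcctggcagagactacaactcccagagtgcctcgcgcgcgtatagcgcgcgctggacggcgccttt
Mrpl37: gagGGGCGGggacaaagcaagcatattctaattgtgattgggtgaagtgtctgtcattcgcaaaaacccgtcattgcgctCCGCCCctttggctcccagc
Mrpl45: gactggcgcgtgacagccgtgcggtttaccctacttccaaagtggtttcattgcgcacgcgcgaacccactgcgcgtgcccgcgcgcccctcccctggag

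Short motifs known from promoters of nuclear genes for mitochondrial proteins were counted in the whole 300-base windows, on both strands, for the 69 members and the 10928 genes of the table that had a window. The ETS core CCGGAAG, bound by factors such as GABPA, was found in 25 of 69 members (36.2%) and in 17.6% of all windows. The core AAGATGGCG of the factor YY1 was found in 8 members (11.6%) and in 3.08% of all windows. The palindromic core of NRF1 was found in 3 members (4.35%) and in 1.95%, and the Sp1 box GGGCGG in 34 members (49.3%) and in 61.0%. Each motif was searched on its own, so matches of different motifs may overlap. Mrpl42 and Mrpl37, whose values differed in opposite directions, both carried the YY1 letters shortly after the start, at positions 28 and 27. The stretches of 30 bases around them, with the YY1 core in capitals, are at chr10:95501903-95501932 and chr4:107066821-107066850, both on the minus strand.
Mrpl42: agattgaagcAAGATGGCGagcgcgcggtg
Mrpl37: tgcacgggcaAAGATGGCGgcgtccaggta

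The libraries held between 13582140 and 17680986 reads, of which the 78 members took 140594 to 197832. Terf1 was at 62.0, 24.6 and 25.3 normalized counts in Terf1FLOX libraries, against 529.6, 486 and 664 in control libraries (limma log2 fold change −3.99 ± 0.61 SE, adjusted p = 0.0814; exact permutation p = 0.1, the smallest that 3 against 3 libraries can give). Markers of the thick ascending limb were abundant. The sums of 6 of 6 markers ran from 133917 to 141500.4 in Terf1FLOX libraries and from 161960.3 to 206066 in control libraries, without overlap. The single markers differed in direction, with 3 at a log2 fold change above 0 and 3 below 0. Among the 6, 1 was higher and 3 were lower at an unadjusted limma p below 0.05, against 5.7% and 8.43% of all tested genes. DESeq2 called 0 of them higher and 3 lower at an adjusted p below 0.05, against 2.21% and 3.0% of all genes. Markers of principal cells were low, with 5 of 6 analysed and sums of 256 to 942 in Terf1FLOX and 920.2 to 2253 in control libraries. All 5 had a log2 fold change below 0, with a median of −1.76. The sums of 7 of 7 intercalated cell markers ran from 6011 to 11801 in Terf1FLOX and from 8866 to 20613 in control libraries. All 7 had a log2 fold change below 0, with a median of −1.63. The sums of 6 of 6 markers of the distal convoluted and connecting tubule overlapped, at 72235 to 127389 and 67945 to 138287. Those of 9 of 10 proximal tubule markers overlapped too, at 3201 to 9792 and 3802 to 5403. In the distal list 4 markers lay above 0 and 2 below, and of 8 tested proximal tubule markers 5 and 3. Macrophage and monocyte markers, 4 of 9 analysed, summed to 143 to 229.5 in Terf1FLOX and 271 to 347 in control libraries. Of 8 endothelial, 8 fibroblast and pericyte and 5 podocyte markers, 1, 1 and 0 were analysed, with sums of at most 5.06 and 59.8 endothelial and 15.2 and 14.2 fibroblast counts in the 2 groups. The sums of 1 of 6 T and NK cell markers (0 to 688, against 174 to 213), 3 of 5 B cell markers (24.6 to 135.6, against 4.74 to 17.2) and 4 of 6 erythroid markers (151 to 554, against 190.2 to 746) were also low. The part of cell type in the results was not tested, and in such bulk libraries fewer cells of a type and less RNA per cell cannot be told apart.

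As a set, the members lay on both sides of the controls. A normalized count is a read count scaled by library, not by gene length, and tests used limma on its log2 value plus 1, over 14822 genes whose mean reached 10 or more. All 78 members passed that filter. Of the members, 43 had a log2 fold change (Terf1FLOX over control) above 0 and 35 below 0, with a median of 0.09, against a median of −0.08 over all tested genes. With equal library totals the members' median was −0.08 and that of all genes −0.24, so the members lay 0.16 above all genes there and 0.17 above them with the deposited scaling. That distance was 0.03 with quantile normalization. The members' median was −0.03 without Terf1FLOX replicate 2, where it lay 0.01 above all genes, 0.03 without control replicate 2 and 0.18 without Terf1FLOX replicate 1.

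No member was called at an adjusted p below 0.05 in limma, where 0% of all genes were called, or in edgeR. DESeq2 called 7 members higher and 2 lower, against 2.21% and 3.0% of all genes. limma restricted to genes with a mean of at least 50 called 1 member, Mrpl37, against 1.23% of all genes. At an unadjusted limma p below 0.05, 14 members (17.9%) were higher and 7 (8.97%) lower in Terf1FLOX libraries, against 5.7% and 8.43% of all tested genes. With edgeR these counts were 14 and 5, against 6.11% and 7.33% of all genes. In limma without control replicate 3 the lower members numbered 4, against 5.3% of all genes. With equal totals they were 9 and 11, against 3.8% and 11.1% of all genes. After correction for transcript GC content and length, a spline fit in each library, they were 18 and 4, against 6.75% and 5.24%. The 3 Terf1FLOX libraries lay above all 3 control libraries for 17 members (21.8%) and below them for 10 (12.8%), against 10.3% and 10.8% of all genes. With the deposited scaling the share of higher members stood above the background in these counts, and that of lower members was close to it.

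**Figure D1:**
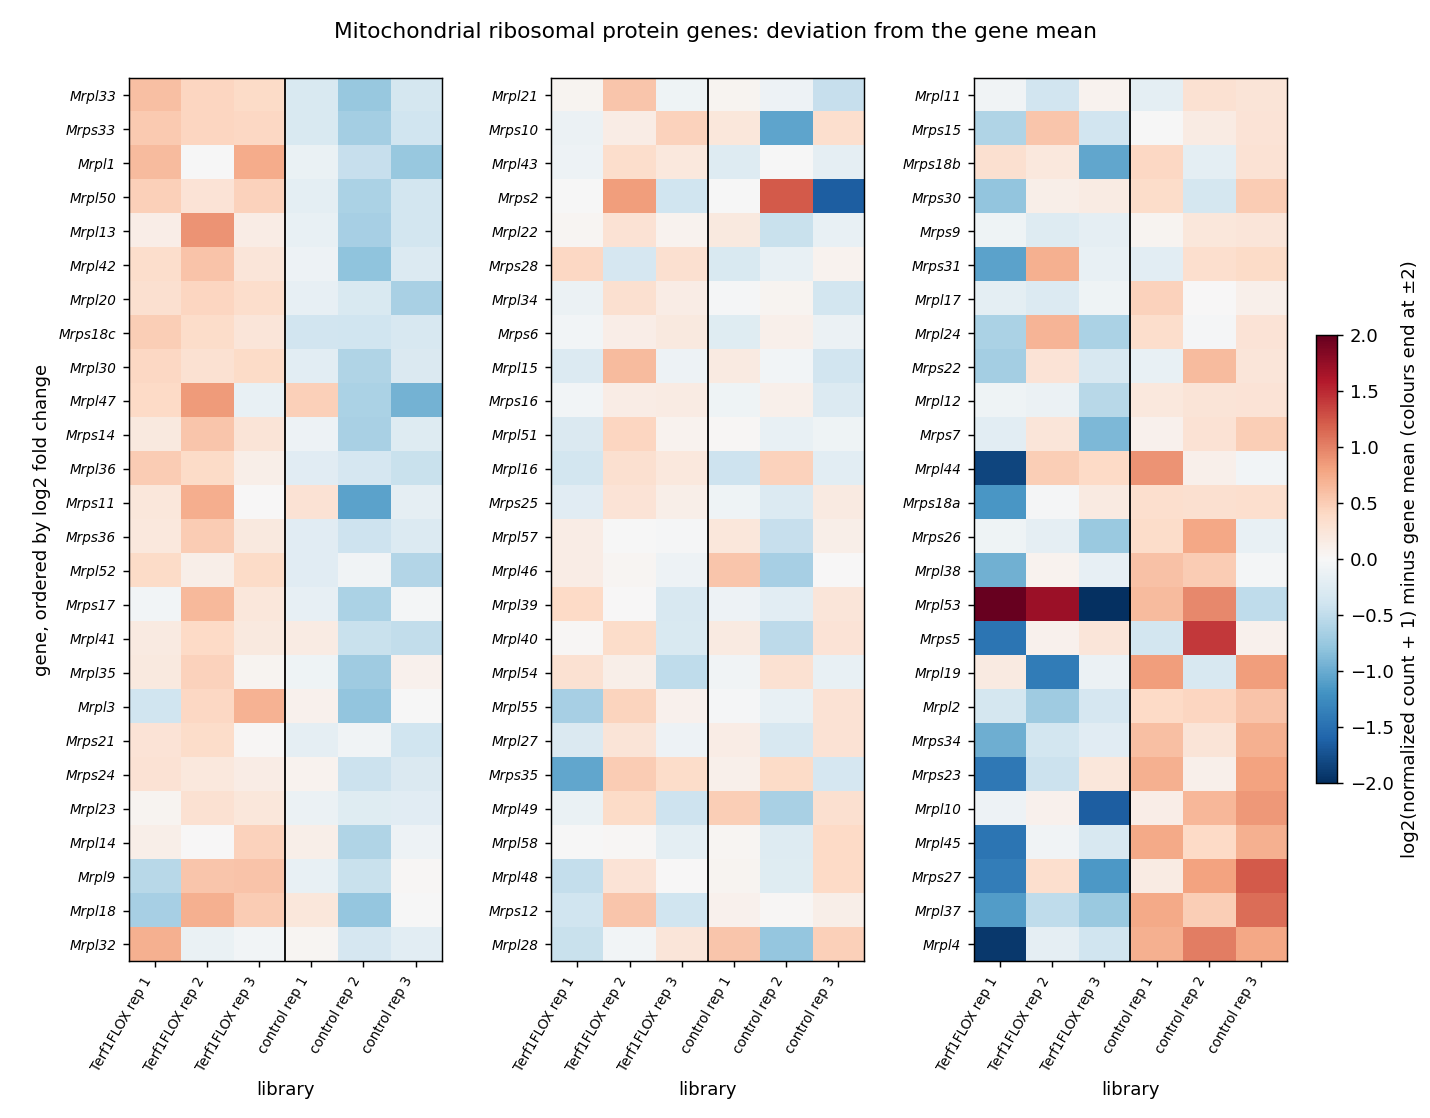
Deviation of log2(normalized count + 1) from the gene mean for the 78 members (rows, ordered by log2 fold change down the panels from left to right) in each library (columns, Terf1FLOX left of the line and control right of it). The top 3 rows of the left panel (Mrpl33, Mrps33 and Mrpl1) are higher in all 3 Terf1FLOX libraries than in any control, and of the bottom 3 rows of the right panel Mrpl37 and Mrpl4 are lower in all 3 while Mrps27 overlaps, with Mrpl53, Mrpl4 and Mrpl44 varying most within the Terf1FLOX group.

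At an unadjusted limma p below 0.05, 9 of 51 large subunit genes were higher and 4 lower, against 5.7% and 8.43% of all genes. The median log2 fold change of the 51 was 0.08 (0.30 after correction for GC and length). Mrpl33, a small protein with a bacterial counterpart, was at 5613, 4986 and 4814 normalized counts in Terf1FLOX libraries, against 3015, 2201 and 2914 in control libraries. Every Terf1FLOX library was above every control library, a 1.91-fold difference (log2 fold change 0.93 ± 0.21, limma adjusted p = 0.134, DESeq2 adjusted p = 0.00457). Mrpl42, found only in mitochondria, was at 25983, 30396 and 24097 in Terf1FLOX libraries, against 19082, 11702 and 16873 in control libraries. The groups did not overlap, and control replicate 2 was the lowest (0.78 ± 0.20, limma adjusted p = 0.167, DESeq2 adjusted p = 0.0289). Mrpl30, a protein with a bacterial counterpart, was at 6292, 5873 and 6179 in Terf1FLOX libraries, against 4106, 3137 and 3864 in control libraries (0.73 ± 0.19, limma adjusted p = 0.172). The Terf1FLOX libraries lay close together and above all controls.

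Mrpl20, whose bacterial counterpart takes part in the early assembly of the large subunit, was at 5019, 5398 and 5117 in Terf1FLOX libraries, against 3588, 3253 and 2561 in control libraries. This was a 1.67-fold difference without overlap (0.74 ± 0.21, limma adjusted p = 0.191). Mrpl50, found only in mitochondria, was at 2491, 2160.3 and 2464 in Terf1FLOX libraries, against 1557, 1154 and 1389 in control libraries (0.80 ± 0.24, limma adjusted p = 0.21). Its log2 fold change was 0.79 after correction for GC and length, close to the uncorrected value, while that of Mrpl33 was then 0.59 and that of Mrpl42 0.56. Mrpl1, the protein of the mobile stalk at the exit site for transfer RNA, was at 1738, 1109 and 1863 in Terf1FLOX libraries, against 1015, 810.2 and 664 in control libraries (0.91 ± 0.33, limma adjusted p = 0.268). Mrpl13, Mrpl36 and Mrpl52 were the other 3 large subunit genes with a higher value at that threshold, with log2 fold changes of 0.78, 0.67 and 0.59. None of the 9 was called by limma, and DESeq2 called Mrpl20, Mrpl30, Mrpl33, Mrpl42 and Mrpl50.

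Among the lower large subunit genes, Mrpl37, found only in mitochondria, was at 529, 809 and 687 normalized counts in Terf1FLOX libraries, against 1957, 1629.8 and 2511 in control libraries. It had the smallest p of all members and was 3.01-fold lower, with no overlap (−1.59 ± 0.31, limma adjusted p = 0.0991). Its limma adjusted p was 0.0391 among genes with a mean of at least 50, its DESeq2 adjusted p was 0.000201, and its log2 fold change was −0.92 after correction for GC and length. Mrpl4, which has a bacterial counterpart that lines the exit tunnel, was at 150.1, 506 and 438 in Terf1FLOX libraries, against 945, 1169 and 982 in control libraries. All Terf1FLOX values were below the controls, and Terf1FLOX replicate 1 was far below the other two (−1.67 ± 0.50, limma adjusted p = 0.202, DESeq2 adjusted p = 0.0399). Without that library its log2 fold change was −1.12.

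Mrpl45, which holds the mitochondrial ribosome at the inner membrane, was at 483, 1271 and 1064 in Terf1FLOX libraries, against 2256, 1759 and 2177 in control libraries. The groups did not overlap (−1.24 ± 0.39, limma adjusted p = 0.219), and the log2 fold change was −0.82 without Terf1FLOX replicate 1. Mrpl2, a core protein beside the site of peptide bond formation, was at 667, 518 and 672 in Terf1FLOX libraries, against 1118, 1142 and 1266 in control libraries (−0.93 ± 0.29, limma adjusted p = 0.224). Its log2 fold change was −0.38 after correction for GC and length. Mrpl10, which anchors the stalk that recruits translation factors, was at 296, 335 and 100.2 in Terf1FLOX libraries, against 348, 504 and 579 in control libraries, without overlap (−1.11 ± 0.56, limma adjusted p = 0.411). Mrpl12, the stalk protein itself, was at 2893, 2838 and 2095 in Terf1FLOX libraries, against 3547, 3676 and 3724 in control libraries. Its groups did not overlap either (−0.50 ± 0.22, limma adjusted p = 0.354), but its log2 fold change had the other sign, 0.14, after correction for GC and length.

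At an unadjusted limma p below 0.05, 4 of 26 small subunit genes were higher and 3 lower, against 5.7% and 8.43% of all genes. The median log2 fold change of the 26 was 0.00 (0.23 after correction for GC and length, −0.17 with equal totals). Mrps33, a small protein found only in mitochondria, was at 8231, 7740.2 and 7627 normalized counts in Terf1FLOX libraries, against 4607, 3573 and 4358 in control libraries. It was 1.89-fold higher, with little spread and no overlap (0.92 ± 0.18, limma adjusted p = 0.108, DESeq2 adjusted p = 0.00141). Mrps18c, one of 3 mammalian proteins related to a single bacterial one, was at 3166, 2885 and 2659 in Terf1FLOX libraries, against 1719, 1694 and 1805 in control libraries (0.74 ± 0.22, limma adjusted p = 0.201, DESeq2 adjusted p = 0.0365). Its relative Mrps18a, a large subunit gene, lay on the other side, at 689, 1528 and 1758 in Terf1FLOX libraries, against 1958, 1929 and 1962 in control libraries (−0.67 ± 0.37, limma adjusted p = 0.461). The third relative, Mrps18b, had overlapping groups (−0.34 ± 0.53). Mrps18a and Mrps18b were chosen after their values were seen.

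Mrps14, which has a bacterial counterpart in the head of the small subunit, was at 7907, 10204 and 8265 in Terf1FLOX libraries, against 6415, 4388 and 5811 in control libraries (0.68 ± 0.21, limma adjusted p = 0.216). Mrps21 was at 7347, 7879 and 6194 in Terf1FLOX libraries, against 5353, 5781 and 4597 in control libraries (0.44 ± 0.19, limma adjusted p = 0.34). Both had every Terf1FLOX library above every control library. Mrps34, in which human variants cause a respiratory chain disease, was at 277, 421 and 463 in Terf1FLOX libraries, against 831, 651 and 898 in control libraries (−1.05 ± 0.37, limma adjusted p = 0.262; −0.54 after correction for GC and length). Mrps27, an RNA-binding protein of the pentatricopeptide repeat family, was at 123, 405 and 145 in Terf1FLOX libraries, against 361, 559 and 748 in control libraries (−1.46 ± 0.57, limma adjusted p = 0.302). Mrps23 was at 375, 750.2 and 1188 in Terf1FLOX libraries, against 1660.0, 1085 and 1763 in control libraries (−1.08 ± 0.45, limma adjusted p = 0.329). For Mrps27 and Mrps23, unlike Mrps34, the groups overlapped. Mrps36, the gene outside the ribosome, was at 4325, 5286 and 4255 in Terf1FLOX libraries, against 3166, 2781 and 3085 in control libraries (0.61 ± 0.20, limma adjusted p = 0.233).

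**Figure D2:**
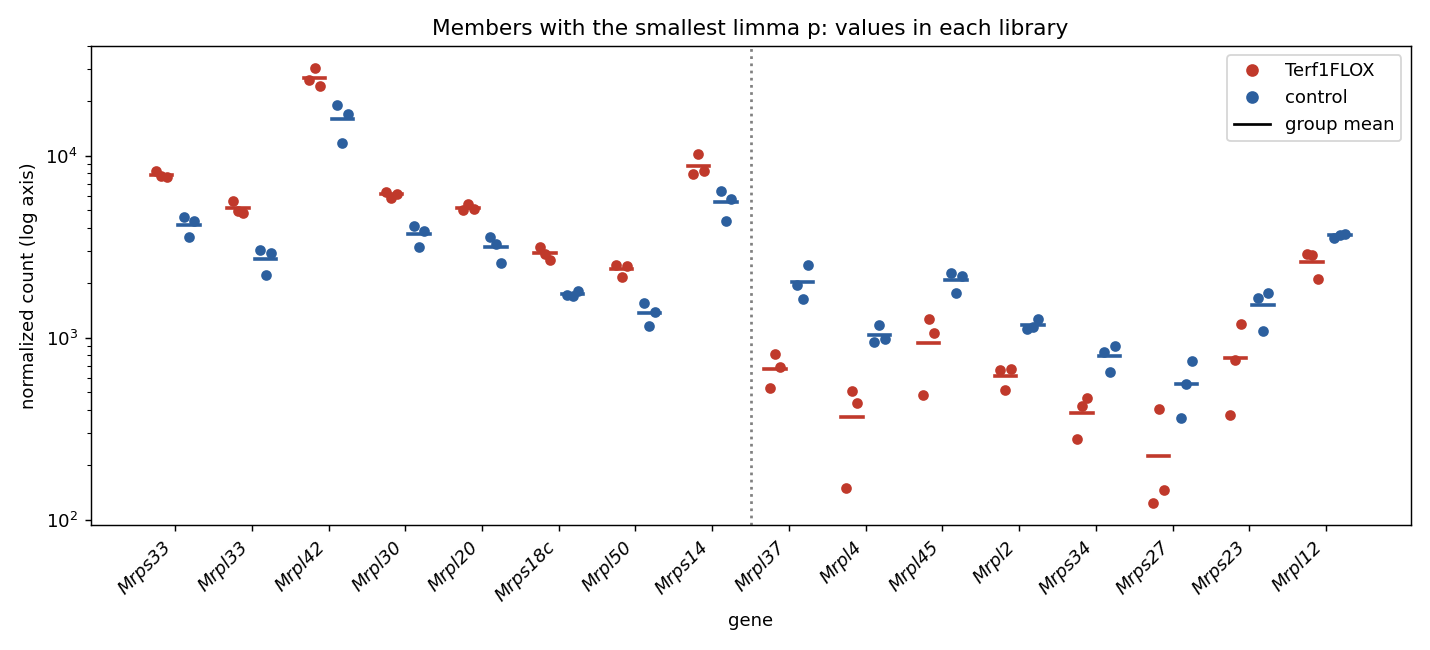
Normalized counts (log axis) of the 8 higher and 8 lower members with the smallest limma p, left and right of the dotted line, in each Terf1FLOX and control library (points) with the group means (bars). The groups do not overlap for any of the 8 higher members, whereas Mrps27 and Mrps23 among the lower ones overlap and Mrpl4 and Mrpl45 have 1 low Terf1FLOX library.

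How firmly these differences stood varied between members. Of the 14 higher members, 7 had an unadjusted p below 0.05 in the same direction under all 18 alternatives tried: Mrpl20, Mrpl30, Mrpl33, Mrpl42, Mrpl50, Mrps14 and Mrps33. Of the 7 lower members, 3 did: Mrpl4, Mrpl37 and Mrpl45. Every alternative reused these libraries, and the same count was not made over all genes, so the counts only describe these members. Mrps21 was the least stable, below 0.05 in 8 of the 18. Across the 78 members, Terf1FLOX replicate 1 was the lowest library for 20 and control replicate 2 for 28, while Terf1FLOX replicate 2 was the highest for 27. The median deviation of the members from their gene means was −0.07, 0.28 and 0.07 log2 units in Terf1FLOX libraries and 0.05, −0.17 and −0.01 in control libraries, so the groups overlapped on this measure.

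The genes were also split into 45 whose protein has a direct bacterial counterpart and 32 others of the 2 subunits. Of the 45, 30 had a log2 fold change above 0 and 15 below, with a median of 0.28. Of the 32, 12 lay above 0 and 20 below it, and the median was −0.12. These 32 are proteins with no counterpart in bacterial ribosomes, together with Mrps18a and Mrps18b, which are related to the bacterial protein S18. The 2 genes were then moved, a split added after the values were seen. The medians were 0.26 over 47 genes with a relative in the bacterial ribosome and −0.11 over 30 without. At an unadjusted limma p below 0.05, 9 of the 45 were higher and 2 lower, against 4 higher and 5 lower of the 32. Over all tested genes, 5.7% were higher and 8.43% lower. In the small subunit the median was 0.27 for 16 genes with a direct counterpart and −0.42 for the other 10. After correction for GC and length these medians were 0.48 and −0.39. With Mrps18b moved they were 0.26 for 17 genes and −0.48 for 9, uncorrected. The difference between the kinds was not tested. Median transcript length was 998 bases for the 45 and 1339 for the 32, and median GC content was 51.1% and 49.9%. The kinds also differed in level, with a median of 1623 normalized counts for the 45 and 1345 for the 32. In the small subunit it was 1644 for the 16 and 786 for the 10.

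Summed over the 78 genes, the level was 171205, 203031 and 175389 normalized counts in Terf1FLOX libraries, against 162773, 134004 and 152956 in control libraries. The groups did not overlap, and the ratio of the means was 1.22, where it was 1.13 over all tested genes. As a share of all reads the members took 1.13%, 1.29% and 1.14% in Terf1FLOX libraries and 1.15%, 1.04% and 1.10% in control libraries, and here the groups overlapped. All reads include those of mitochondrially encoded genes, which took 16.2% to 20.6% in Terf1FLOX and 10.3% to 13.0% in control libraries. The ratio of 1.13 over all tested genes includes these genes too. The members' share of the remaining reads was not calculated. The ratio of the members' sums was 1.21 for the large and 1.22 for the small subunit. Per kilobase of transcript, Mrpl42 had the highest level of all members, at 40583 ± 4891 normalized counts per kilobase in Terf1FLOX and 24032 ± 5730.4 in control libraries (SD, n = 3 each). Mrps21, a small subunit protein with a bacterial counterpart, came next, at 17629.6 ± 2126 and 12947 ± 1481. The values of Mrpl42 and Mrps21 did not overlap within either group. Then came Mrpl20 (10482 ± 399 and 6344 ± 1061), Mrps33 (10971 ± 448 and 5829 ± 752) and Mrpl33 (10748 ± 880 and 5669 ± 928). These did not differ from each other beyond their spread. Mrpl42 alone made up 13.7% to 15.2% of the summed level in Terf1FLOX libraries and 8.73% to 11.7% in control libraries. Without it, a sum added after its values were seen, the ratio of the means was 1.17. How reads shared with near-identical copies were counted was not stated.

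The fold change differed with the level of the gene. The 26 members with the lowest mean level had a median log2 fold change of −0.37, with 8 above 0 and 18 below. The middle 26 had a median of 0.06. The 26 with the highest mean level, 2143 to 21355 normalized counts, had a median of 0.44, with 21 above 0 and 5 below. Pearson's r between log2 fold change and log2 mean level was 0.53 over the 78 members (Spearman's rho 0.57) and 0.01 over all tested genes. The mean level contains the values of both groups, and with the control mean alone r was 0.35. The genes share libraries, so these correlations are descriptions.

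The fold change also differed with transcript properties. Transcript lengths and GC contents were medians over annotated protein-coding transcripts of GENCODE release 21 for mouse. Pearson's r with GC content was −0.36 over the 78 members and −0.22 over all genes, and r with log2 transcript length was −0.13 and −0.02. The 26 members with the lowest GC content (41.4% to 48.8%) had a median log2 fold change of 0.26, with 20 above 0. The 26 with the highest (52.7% to 60.6%) had a median of −0.11, with 11 above 0. Of the 26 shortest transcripts, 405 to 803 bases, 10 were higher and 1 lower at an unadjusted limma p below 0.05, while these counts were 1 and 4 in the middle 26 and 3 and 2 in the longest 26. Over all tested genes, 5.7% were higher and 8.43% lower at that threshold, and 6.75% and 5.24% after correction for GC and length. With that correction the counts by length were 11 and 1, 5 and 1, and 2 and 2 from the shortest to the longest. Those of the longest 26 were close to the shares over all genes. The corrected counts by GC content were 6 and 1 in the lowest 26, 3 and 1 in the middle 26 and 9 and 2 in the highest 26. The median transcript of the 14 higher members was 661.5 bases long with 47.6% GC, that of the 7 lower members 998 bases with 55.3% GC, and that of the other 57 members 1219 bases with 51.1% GC. The part of base composition, length and level in the fold changes was not tested beyond the corrected values given here.

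**Figure D3:**
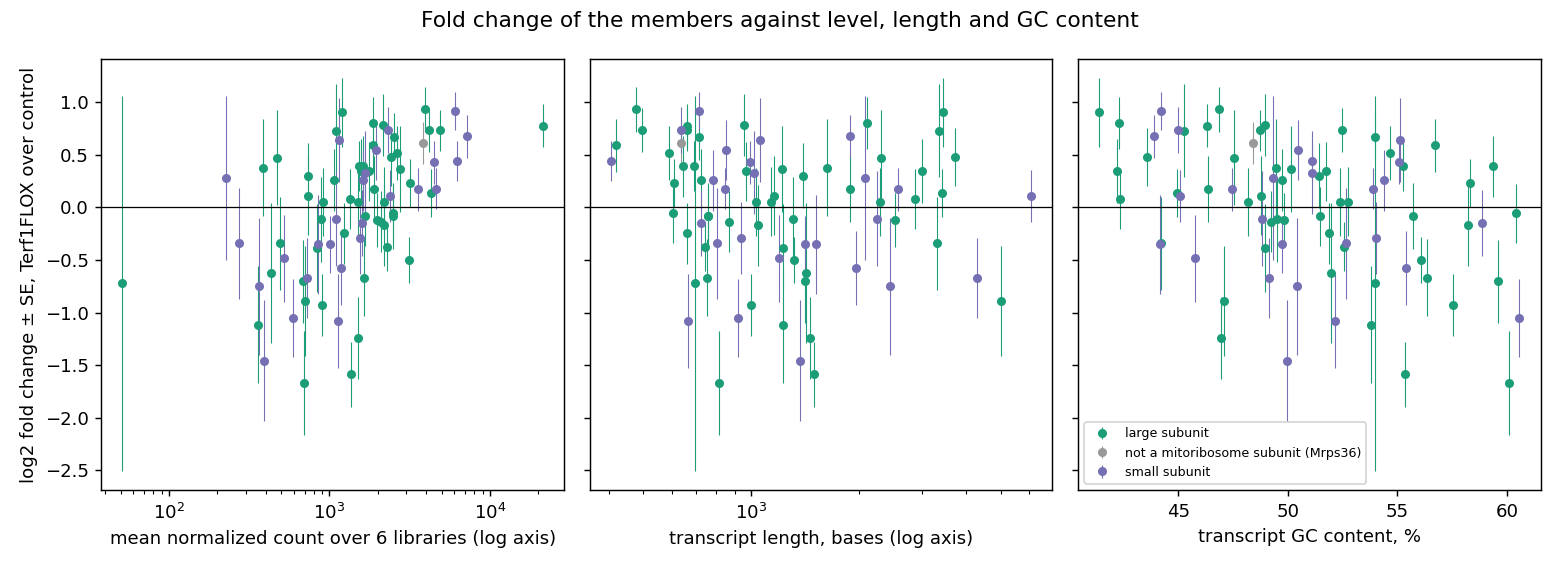
Log2 fold change (Terf1FLOX over control, ± SE) of each of the 78 members against its mean normalized count, its transcript length and its transcript GC content, with colours for the subunits and grey for Mrps36. The points lie higher at higher mean levels (r = 0.53) and lower at higher GC content (r = −0.36), and the longest error bar is that of Mrpl53, which had no read in 1 library.

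Other genes of the same machinery were read from lists. The counts in these lists stand beside 5.7% higher and 8.43% lower over all tested genes at an unadjusted limma p below 0.05. Of 5 mitochondrial ribosomal proteins with other symbols, 1 was higher and 2 were lower at an unadjusted limma p below 0.05. Chchd1, a small subunit protein, was at 6523, 6615 and 4186 normalized counts in Terf1FLOX libraries, against 3469.5, 2313 and 2669.7 in control libraries (1.02 ± 0.26, limma adjusted p = 0.157). Dap3, a GTP-binding protein of the small subunit, was at 885, 361 and 247 in Terf1FLOX libraries, against 1128, 1469 and 1511 in control libraries (−1.66 ± 0.48, limma adjusted p = 0.196). Gadd45gip1, a large subunit protein, was at 348, 509 and 461 in Terf1FLOX libraries, against 1021, 1389 and 962 in control libraries (−1.35 ± 0.34, limma adjusted p = 0.15). In none of the 3 did the groups overlap, and DESeq2 called each of them.

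Transfer RNAs are charged inside the organelle by aminoacyl-tRNA synthetases and, for glutamine, with the help of an amidotransferase. Among 22 genes of this step, 19 for synthetases and 3 for subunits of the amidotransferase (Qrsl1, Gatb and Gatc), 3 had a log2 fold change above 0 and 19 below, with a median of −1.05 (−0.67 after correction for GC and length). The 19 synthetases alone, a subset taken after the values were seen, had a median of −1.10, with 3 above 0 and 16 below it. At an unadjusted limma p below 0.05, 0 of the 22 were higher and 5 lower, all 5 synthetases. The summed level of all 22 genes was 4084 to 5007 normalized counts in Terf1FLOX libraries, against 8104 to 9455 in control libraries, without overlap. Wars2, the tryptophan enzyme, was at 39.2, 75.9 and 19.2 in Terf1FLOX libraries, against 133, 285 and 384 in control libraries (−2.63 ± 0.78, limma adjusted p = 0.202). Vars2 was at 18.5, 0 and 0 in Terf1FLOX libraries, against 40.5, 109 and 47.4 in control libraries. Pars2 was at 0, 1.03 and 12.1 in Terf1FLOX libraries, against 139, 19.1 and 71.8 in control libraries. No fold is given for Vars2 and Pars2, which had libraries with no read.

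Of 11 translation factors, 1 was higher and 1 lower at that threshold, with a median log2 fold change of −0.55 (−0.09 after correction for GC and length). Gfm1, the elongation factor that moves the ribosome along, was at 488, 257 and 152 normalized counts in Terf1FLOX libraries, against 581, 742 and 689.9 in control libraries (−1.32 ± 0.49, limma adjusted p = 0.277). Guf1 had a log2 fold change of 0.89 ± 0.37 and Tsfm one of −0.60 ± 0.39. Of 25 assembly and ribosomal RNA factors, 1 was higher and 4 lower, with a median of −0.46. Rcc1l, a factor for ribosomal RNA in mitochondria, was at 27.2, 0 and 17.2 in Terf1FLOX libraries, against 150.4, 237 and 312 in control libraries (limma adjusted p = 0.188). Mterf3, a regulator of mitochondrial transcription and ribosome assembly, had a log2 fold change of 1.03 ± 0.31, and Nsun4, a methyltransferase for ribosomal RNA, one of −1.34 ± 0.49.

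Of 22 genes for mitochondrial transcription and RNA handling, 2 were higher and 2 lower, with a median log2 fold change of −0.29. The partners Slirp and Lrpprc, which together stabilise mitochondrial messenger RNAs, differed in direction. Slirp was at 2776, 2998 and 2220.3 normalized counts in Terf1FLOX libraries, against 1279, 1132 and 1296 in control libraries (1.10 ± 0.24, limma adjusted p = 0.128). Lrpprc was at 412, 609 and 324 in Terf1FLOX libraries, against 686, 1071 and 979 in control libraries (−1.05 ± 0.38, limma adjusted p = 0.273). Slirp has a transcript of 582 bases and Lrpprc one of 4393 bases. Oxa1l, which inserts the products of the mitochondrial ribosome into the inner membrane, was at 169.7, 421 and 321 in Terf1FLOX libraries, against 391, 866 and 1253 in control libraries (−1.40 ± 0.55, limma adjusted p = 0.299). Of 9 regulators of mitochondrial biogenesis, 0 were higher and 0 lower at that threshold, with a median of 0.40. With GC and length corrected, 3 were higher and 0 lower, against 6.75% and 5.24% of all genes, and the median was 0.60. Ppargc1a, the coactivator of that programme, was at 7569.7, 5671 and 5862 in Terf1FLOX libraries, against 4969, 4508 and 4899 in control libraries (0.40 ± 0.19, limma adjusted p = 0.393). Pprc1 and Esrra had log2 fold changes of 2.60 ± 1.24 and 0.76 ± 0.48.

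The products and the cytoplasmic counterpart of the mitochondrial ribosome were set beside it. All 13 mitochondrially encoded messenger RNAs had a log2 fold change above 0, with a median of 0.93 (0.34 after correction for GC and length) and 9 of 13 at an unadjusted limma p below 0.05, against 1 of 13 after that correction. The 3 with the smallest p, mt-Atp8, mt-Cytb and mt-Atp6, had log2 fold changes of 1.40, 0.93 and 1.10. Mitochondrially encoded genes took 18.1%, 16.2% and 20.6% of reads in Terf1FLOX libraries and 13.0%, 12.9% and 10.3% in control libraries. Of 83 tested cytoplasmic ribosomal protein genes, 44 were higher and 4 lower at that threshold, and their median was 0.59 (0.68 after correction for GC and length). The members' median of 0.09 lay between those of the transfer RNA charging genes and of the cytoplasmic ribosome. The differences between these lists were not tested.

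**Figure D4:**
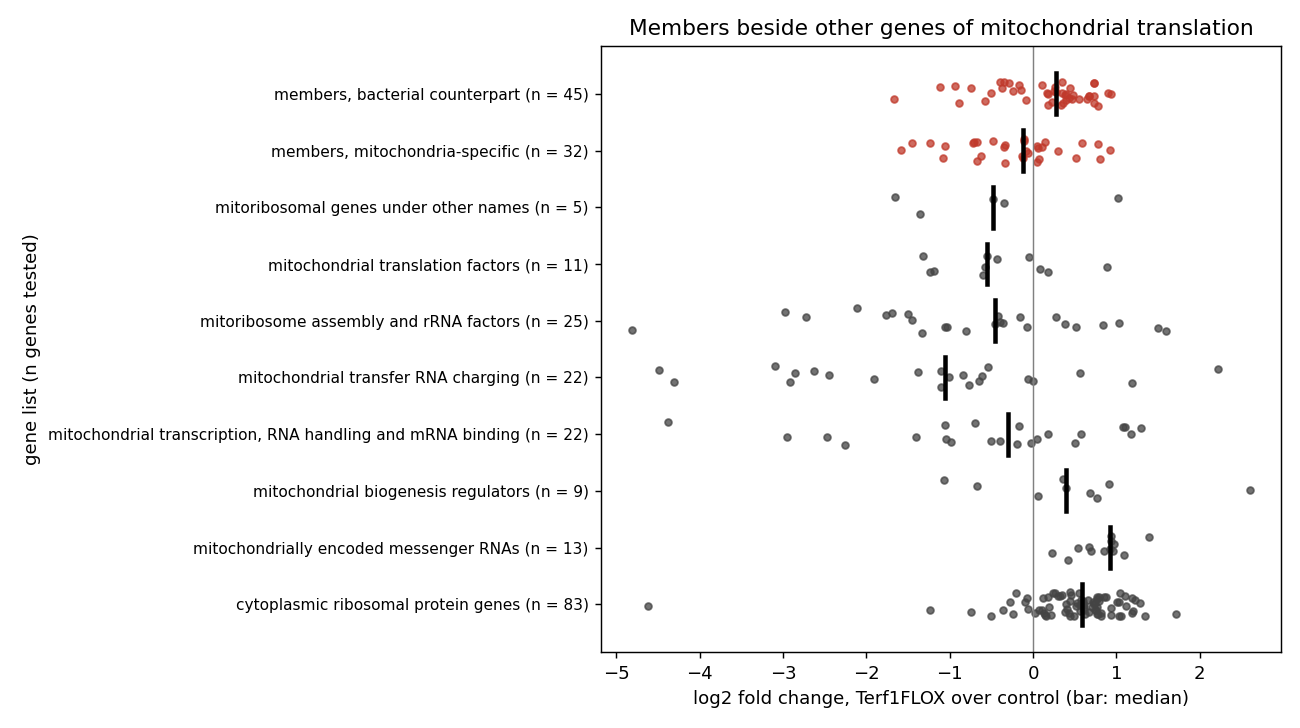
Log2 fold change (Terf1FLOX over control) of each tested gene (points) and the median (bar) for the members with a direct bacterial counterpart and the other members of the 2 subunits (red; the others are labelled mitochondria-specific, Mrps18a and Mrps18b included) and for other gene lists (grey). The median runs from −1.05 for the transfer RNA charging genes to 0.93 for the mitochondrially encoded messenger RNAs, with the members at 0.28 and −0.12.

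Depth limited few members. Of the 78, 1 had under 20 reads in any library: Mrpl53, at 108, 88.3 and 0 normalized counts in Terf1FLOX libraries, against 41.3, 52.4 and 18.2 in control libraries. Its log2 fold change of −0.72 ± 1.78 had the sign opposite to that of the group means, which were 65.3 ± 57.4 in Terf1FLOX and 37.3 ± 17.5 in control libraries, and it ran from −1.89 to 1.49 when single libraries were left out. Mrps2, which with Mrpl53 stood lowest per kilobase, had overlapping groups (221 ± 101 in Terf1FLOX and 229.6 ± 195 in control libraries). Of the members, 19 share exon bases with another gene of the table in the GENCODE annotation, and 11 share over 10% of them. These include Mrpl13 (27.0%, with Mtbp) and Mrps27 (22.6%), where the other gene is on the opposite strand. They also include Mrps18c (18.5%), where it is on the same strand. Reads of the other gene cannot be told apart unless a unique exon or, for Mrpl13 and Mrps27, strand was used. The pseudogene Mrpl23-ps1, which is not a member, was at 9.79, 14.4 and 9.11 in Terf1FLOX libraries, against 10.6, 14.3 and 5.53 in control libraries.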

How the data were processed

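RNA of 6 libraries of sorted mouse kidney epithelial cells was made into sequencing libraries with a low-input kit, per the labels. The authors deposited a table of counts normalized between libraries, a signal and not raw reads; DESeq2 and build GRCm39 are named in the submitters' processing notes, and the aligner, counter, annotation and gene filter were not stated. All deposited values (100% within 0.01 of a read) were whole multiples of 1 step per library, so whole reads were recovered. limma 3.58.1 in R 4.3.3, with eBayes and its trend option, two-sided and with Benjamini-Hochberg adjustment over the 14822 genes of mean 10 or more, on log2(normalized count + 1) gave fold changes, which understate the change of low genes; values after ± are SE for fold changes and SD for levels. It was tried on simulated reads. edgeR (4.0.16, quasi-likelihood) and DESeq2 (1.42.0) were run on the recovered reads. No adjusted p rests on the members alone. The GC content and length correction subtracted, in each library, a spline fit (4 degrees of freedom each) of the deviations from the gene means; 78 of 78 members had transcript values. The main fit did not treat samples with the same replicate number as pairs. Genes were named by smallest p (8 in each direction), highest mean (4), largest fold without overlap (4 in each direction) and smallest p in each list (3); the others were chosen after their values were seen. The members, lists and alternatives were chosen with earlier results of these data known. Motif letters and gene classes were written from background knowledge. Figures used matplotlib 3.10.9.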

Additional observations from a re-analysis of the deposited data

How the results depend on the processing

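Over all genes, 0 were called by limma, against 132 among genes of mean 50 or more, 45 under equal totals, 8 with quantile normalization and 772 by DESeq2. Of the members 0 were called, against 1 among genes of mean 50 or more and 9 by DESeq2. Members higher at an unadjusted p below 0.05 numbered 14 (9 with equal totals, 10 to 15 without a library), and members lower 7 (11 with equal totals, 4 with GC content and length corrected, 4 to 9 without a library, the fewest without control replicate 3). The members' median log2 fold change of 0.09 was −0.083 with equal totals and 0.29 with GC content and length corrected, with or without the replicate block, and −0.03 to 0.18 without a library. The large subunit median of 0.08 was 0.30 with that correction and −0.02 to 0.19 without a library. The small subunit median of 0.00 was −0.17 with equal totals, 0.23 with the correction, and −0.19 to 0.18 without a library, the lowest without Terf1FLOX replicate 2 and the highest without Terf1FLOX replicate 1. The log2 ratio of the summed levels, 0.29, was 0.12 with equal totals; settings that do not act on a sum gave no value. Terf1, at −3.99, was called among genes of mean 50 or more (−3.99), with equal totals (−4.17) and DESeq2 (−3.89). Mrpl12 had the other sign, 0.14, with the correction, with or without the block. The cause of these shifts was not tested. Correlations of deviations between same-numbered libraries were −0.049, 0.00013 and −0.0069. Not every library correlated best with its own number, and the main fit treated the samples as unpaired. Such correlations, of deviations from means of 3 libraries, cannot show that the samples were unpaired. With the replicate block 11 members were higher and 8 lower at an unadjusted limma p below 0.05, against 702 and 1182 of 14822 genes. The median of all genes moved by −0.17 under equal totals, by 0.12 under upper-quartile scaling and by 0.13 under quantile normalization, and the share of higher genes among those at p below 0.05, 40.3%, was then 25.4%, 50.9% and 47.3% (56.3% with the correction). For the named genes, 707 results under alternatives kept their direction and side of the threshold, 26 passed it and 2 reversed. The 3 members with a mean under 300 counts (Mrps18b, Mrps2 and Mrpl53) had standard errors of 0.53 to 1.78, against a median of 0.31 over the 78.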
